A study of Mus musculus with 8 samples.

Results

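Transcription factors that set and keep B cell identity were followed in peritoneal B-1a cells with and without PTIP. The set was a list of 39 gene symbols, chosen by family and role, and 37 of them could be matched to a probe set of the array through the platform annotation, among 22180 genes tested, and each was read from its probe set with the highest mean over the 8 arrays. Pou2f1 and Zeb2 were not analysed here, because no probe set carried their symbol alone. B-1a cells are B lymphocytes of the body cavities that renew themselves and carry CD5, and they were sorted by flow cytometry from peritoneal washes of mice 5 weeks old. Mutant mice, called KO below, were PTIPflox/flox and control mice PTIP+/+. Both groups also carried 1 Cre allele that is active in B lineage cells, so the deletion was limited to cells in which that allele acts. The 29 KO and 22 control mice were divided into 4 samples per genotype, so each array read a pool of mice. The number of mice per pool is not stated in the sources used here.

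B cell identity rests on a small network of DNA-binding proteins. The E proteins E2A (Tcf3), E2-2 (Tcf4) and HEB (Tcf12), together with Ebf1, Pax5 and Foxo1, switch on B cell genes in precursors, and Pax5 then holds the lineage. Id2 and Id3 have the helix-loop-helix dimer surface but no DNA-binding region and keep E proteins off DNA. In mature cells PU.1 (Spi1), Spi-B, Irf4, Irf8 and the octamer factors act at many of the same genes, and Bcl6 and Bach2 oppose Blimp-1 (Prdm1), which starts the plasma cell programme. Paxip1 encodes PTIP, which belongs to the MLL3 and MLL4 histone H3K4 methyltransferase complexes.

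The targeted gene checked the labels. Paxip1 had log2 values of 4.66, 4.48, 4.79 and 3.58 in KO pools 1 to 4, while control pools 1 to 4 had 6.87, 7.13, 7.16 and 7.03, a difference of -2.67 (SE 0.22, limma, adjusted p = 9.96e-05). Every KO pool lay below every control pool. The B cell marker Ms4a1 (CD20) was at 11.1 ± 0.06 in KO and 11.1 ± 0.03 in control (SD, n = 4 pools each). Cd5, which B-1a cells carry and T cells also express, was at 7.48 ± 0.19 and 7.44 ± 0.15. T cell markers were higher on average in KO, as given below, so Cd5 alone does not measure the share of B-1a cells. The precision is limited by the number of arrays. RMA scales all arrays to 1 distribution, so each difference is relative to the other genes. Levels of different genes come from different probes and are not compared with each other.

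Of the 37 factors, 4 were higher and 3 lower in KO at an adjusted p under 0.05 (limma, Benjamini-Hochberg over all 22180 genes), and these 7 are described as called. Satb1, Klf9, Foxo1 and Foxo3 rose, and Zbtb32, Myb and Pou2f2 fell. The share called was 18.9% of the factors, against 3.59% of all genes tested, of which 1.49% were higher and 2.10% lower. The list was chosen with earlier results of these data known, so these shares are descriptive and were not tested. All 37 factors had a mean at or above the median of all gene means, and in that brighter part of the array 6.65% of 11090 genes were called. The median factor lay at percentile 91.6 of gene means, and no share was computed for genes that bright. The median difference of the factors was 0.12, beside 0.02 over all genes, and their median size without sign was 0.23 beside 0.10. In 15 factors the ranges of KO and control did not overlap, 40.5% of the set, as was so for 10.5% of all genes and for 17.3% of the brighter ones. The count of called factors was 4 without KO pool 1, KO pool 2, control pool 3 or control pool 4.

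**Figure D1:**
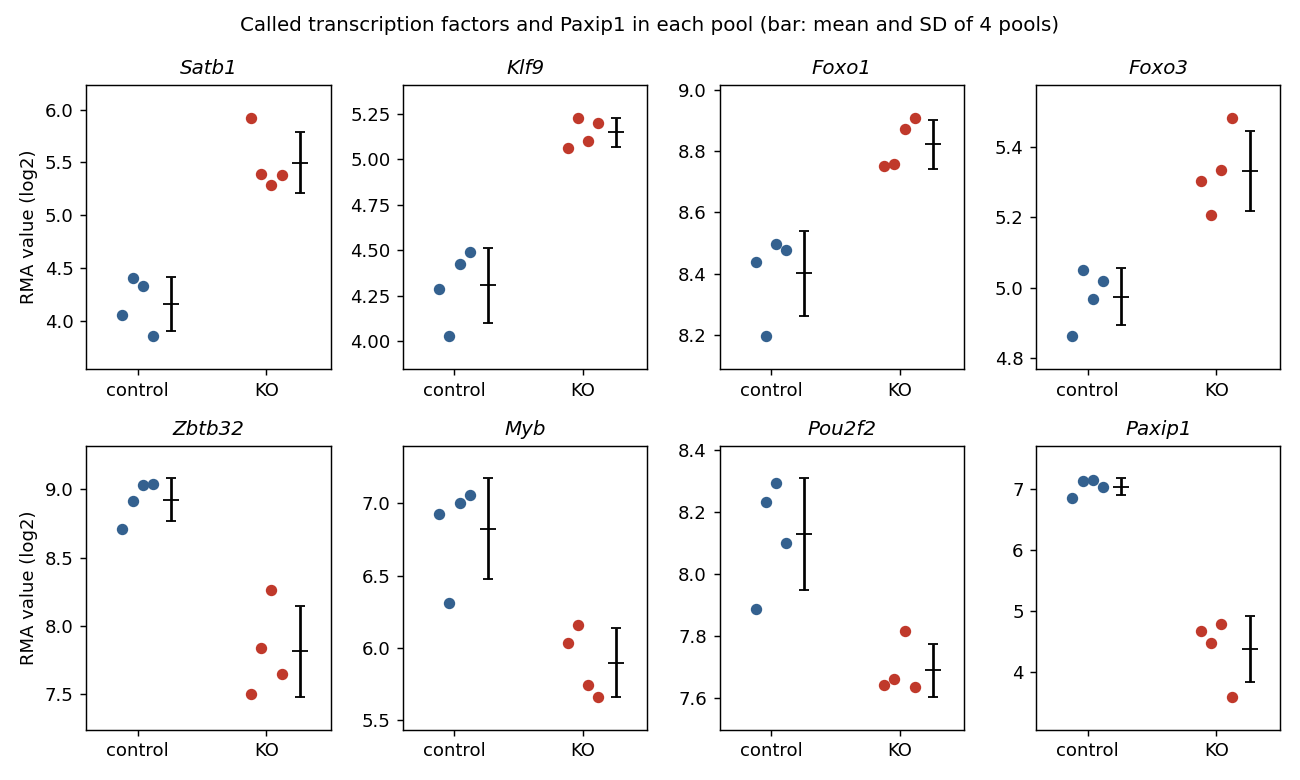
RMA values (log2, vertical axis) of the 7 called factors and of Paxip1 in each of 4 control and 4 KO pools. Points are pools, and the bar beside them is the mean and SD; axes do not start at 0. In all 8 genes the KO points lie apart from the control points, with the widest gaps in Paxip1, Satb1 and Klf9 and the narrowest in Pou2f2.

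The promoters of 4 called factors are shown as examples, and each carries the letters of a motif bound by a family in the set. They are the 250 bases before a RefSeq transcription start in GRCm38.p6, written 5′ to 3′ along the gene, with each motif match in capitals. RefSeq windows were found for 30 of the 37 factors, 48 windows in all, since some genes have several starts.
Klf9, chr19:23140976-23141225, plus strand: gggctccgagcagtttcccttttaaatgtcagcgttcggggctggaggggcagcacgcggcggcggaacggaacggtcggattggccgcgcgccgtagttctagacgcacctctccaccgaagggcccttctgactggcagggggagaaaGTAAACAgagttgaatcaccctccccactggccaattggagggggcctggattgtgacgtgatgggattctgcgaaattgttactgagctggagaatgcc
Foxo1, chr3:52268087-52268336, plus strand: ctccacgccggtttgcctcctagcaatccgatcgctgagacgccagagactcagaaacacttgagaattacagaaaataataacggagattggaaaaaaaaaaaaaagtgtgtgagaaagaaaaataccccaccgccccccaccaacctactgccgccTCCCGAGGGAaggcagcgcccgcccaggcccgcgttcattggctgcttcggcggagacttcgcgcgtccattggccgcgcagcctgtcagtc
Zbtb32, chr7:30598910-30599159, minus strand: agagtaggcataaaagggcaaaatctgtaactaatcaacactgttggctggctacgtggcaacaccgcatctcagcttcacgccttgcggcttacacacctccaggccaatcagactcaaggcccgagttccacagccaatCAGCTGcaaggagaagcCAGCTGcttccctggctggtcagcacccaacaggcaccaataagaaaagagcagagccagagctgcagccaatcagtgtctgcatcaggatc
Pou2f2, chr7:25132461-25132710, minus strand: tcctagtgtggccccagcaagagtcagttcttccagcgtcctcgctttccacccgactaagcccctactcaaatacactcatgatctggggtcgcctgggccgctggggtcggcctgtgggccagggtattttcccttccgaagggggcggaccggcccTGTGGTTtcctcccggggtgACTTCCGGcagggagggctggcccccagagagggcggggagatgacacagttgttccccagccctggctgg
The forkhead core TGTTTAC, read here as its reverse complement, begins 100 bases before the Klf9 start, and 3.17% of 32851 RefSeq windows hold it. The Ebf1 palindrome, TCCC and GGGA with any 2 bases between them, begins 92 bases before the Foxo1 start and occurs in 0.779% of windows. The E box CAGCTG, 1 of the forms that E proteins bind, begins 109 and 92 bases before the upstream Zbtb32 start. At least 1 copy lies somewhere in 13% of windows. Pou2f2 holds the Runx letters TGTGGTT 91 bases before its start (4.40% of windows) and the ETS letters CCGGAAGT, on the reverse strand, 71 bases before it (2.88%). The motifs were searched on both strands, along with the octamer ATGCAAAT, the IRF form, GAAA repeated after any 2 bases, and GAGGAAGT of PU.1 and Spi-B, which shares GGAAGT with the ETS letters. Of the other called factors, 1 of the 5 Satb1 starts had an E box, and the windows of Foxo3 and Myb held none of the 8 motifs. Of the 48 windows of the factors, 2 held the forkhead core, 1 the Ebf1 palindrome, 4 the E box, 4 the Runx letters and 2 the ETS letters. Factors that were not called held matches too, among them Prdm1, Elf1, Ebf1, Tcf12 and Runx3. A match is a description of letters and shows no binding.

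Satb1, a chromatin organiser that loops distant genes together and is best known in T cells, rose most. Its values in KO pools 1 to 4 were 5.92, 5.39, 5.29 and 5.38, against 4.06, 4.40, 4.33 and 3.86 in control pools 1 to 4. The lowest KO pool lay above the highest control pool by more than the range of either group. The difference was 1.34 (SE 0.16), a fold of 2.52, with an adjusted p of 0.000974 in limma. Satb1 remained called in all 20 alternatives of the fit at the same threshold, with differences from 1.08 to 1.42 and adjusted p up to 0.0408.

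Klf9, a Krüppel-like zinc finger factor induced by glucocorticoids and known to restrain B cell division, rose with little spread. KO pools 1 to 4 stood at 5.06, 5.23, 5.10 and 5.20 and control pools 1 to 4 at 4.29, 4.03, 4.42 and 4.49. The KO pools were nearly level and all above control. The difference was 0.84 (SE 0.11, adjusted p = 0.00160 in limma), and it was called in all 20 alternatives (adjusted p up to 0.0324). Klf3, a Krüppel-like repressor, differed by -0.02 (95% confidence interval -0.22 to 0.19) and was not called.

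The forkhead factors Foxo1 and Foxo3, which enter the nucleus when PI3 kinase signalling is low, rose by smaller amounts. Foxo1 read 8.75, 8.76, 8.87 and 8.91 in the 4 KO pools, against 8.44, 8.20, 8.50 and 8.48 in the 4 control pools. The KO pools were all higher, with control pool 2 the lowest of the 8. The difference was 0.42 (SE 0.09, adjusted p = 0.0308 in limma), and the other Foxo1 probe set differed by 0.55. Foxo3 read 5.30, 5.21, 5.33 and 5.48 in KO, against 4.86, 5.05, 4.97 and 5.02 in control, again with separate ranges, a difference of 0.36 (SE 0.09, adjusted p = 0.0490 in limma). Neither call survived the omission of any 1 of the 8 pools, with adjusted p up to 0.0838 for Foxo1 and 0.123 for Foxo3 and differences that stayed between 0.35 and 0.45 and between 0.31 and 0.40. Foxp1, a forkhead repressor required in B cell precursors, differed by 0.05 (95% confidence interval -0.11 to 0.21) and was not called.

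Zbtb32 encodes a BTB zinc finger repressor expressed in B-1 cells and restraining memory B cell responses, and it had the largest fall. It read 7.50, 7.84, 8.27 and 7.65 in the 4 KO pools, against 8.71, 8.91, 9.03 and 9.04 in the 4 control pools. KO pool 3 was the highest of its group and still below every control pool. The difference was -1.11 (SE 0.15, adjusted p = 0.00256 in limma), and the call was lost in 1 of 20 alternatives, without moderation of the variance (adjusted p = 0.0563).

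The other repressors of B cell fate were not called. Prdm1 (Blimp-1) was at 5.26, 5.09, 5.14 and 5.28 in KO pools and 5.03, 5.04, 4.87 and 5.09 in control pools, groups that did not overlap by a narrow margin, and differed by 0.19 (95% confidence interval -0.0003 to 0.37). Bcl6, the repressor that governs germinal centre B cells, differed by 0.23 with control pool 4 above all KO pools, and by 0.36 without that pool. Bhlhe40, a repressor close in sequence to the B-1a factor Bhlhe41, differed by 0.19, and by 0.0912 without control pool 3. Their adjusted p values in limma were 0.327, 0.429 and 0.475.

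Myb, a factor of progenitors and dividing lymphocytes, fell on both of its probe sets. KO pools 1 to 4 read 6.03, 6.16, 5.74 and 5.66 and control pools 1 to 4 read 6.92, 6.31, 7.0 and 7.06. Control pool 2 came close to the KO pools, and the groups did not overlap. The difference was -0.92 (SE 0.17, adjusted p = 0.0125 in limma), and the other probe set differed by -0.93. The call held without each pool in turn (adjusted p up to 0.0451) and was lost once T cell markers entered the fit as covariate, at -1.01 (adjusted p = 0.0551), without moderation of the variance (0.119) and with adjustment over all probe sets.

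The octamer proteins bind ATGCAAAT in immunoglobulin promoters, and their coactivator OBF-1 is encoded by Pou2af1. Pou2f2 (Oct-2) fell, from 7.89, 8.23, 8.29 and 8.10 in control pools 1 to 4 to 7.64, 7.66, 7.81 and 7.63 in KO pools. The lowest control pool lay just above the highest KO pool. The difference was -0.44 (SE 0.10, adjusted p = 0.0388 in limma). Omitting KO pool 1, 2 or 4, or control pool 2, 3 or 4, ended the call, at adjusted p values up to 0.111, with differences from -0.52 to -0.39 over the 8 omissions. Pou2af1 was at 10.9 ± 0.04 in KO and 10.7 ± 0.13 in control, a difference of 0.23 that was not called (adjusted p = 0.227 in limma), although the groups did not overlap.

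**Figure D2:**
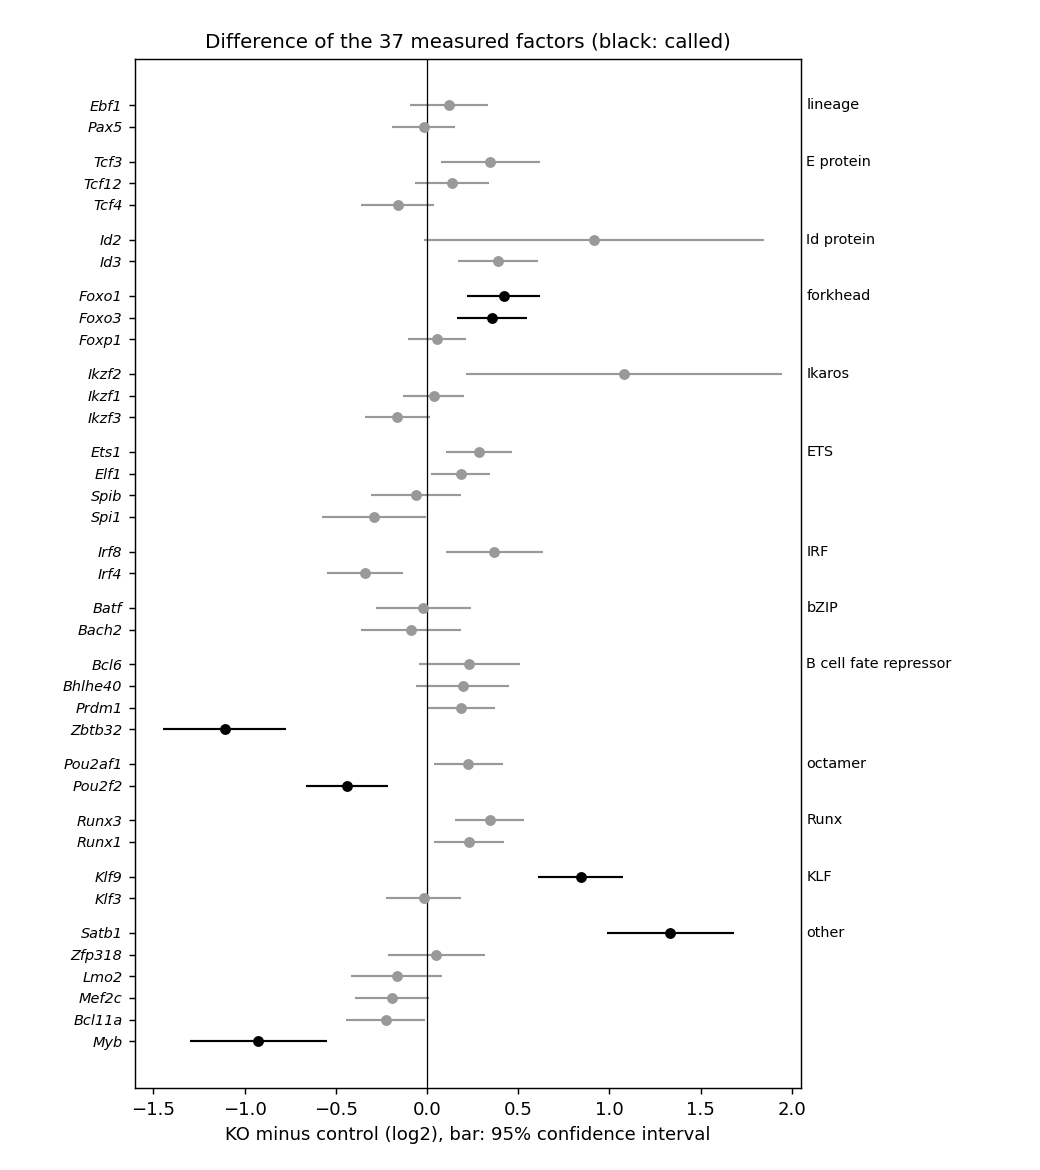
Difference of KO minus control (log2, horizontal axis) with its 95% confidence interval for the 37 measured factors, grouped by family or role. Black points are the 7 called factors, of which Satb1, at 1.34, and Zbtb32, at -1.11, lie farthest from 0 on either side; Id2 and Ikzf2 have the widest intervals.

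The central lineage factors differed little. Pax5 read 8.41, 8.37, 8.50 and 8.46 in the 4 KO pools, against 8.38, 8.40, 8.53 and 8.50 in the 4 control pools. The groups overlapped throughout, and the difference was -0.02 with a 95% confidence interval from -0.19 to 0.15. Ebf1, the pioneer factor of the lineage, differed by 0.12 (95% confidence interval -0.09 to 0.33) with control pool 4 higher than 3 of the 4 KO pools. Ikzf1 (Ikaros) differed by 0.04 (95% confidence interval -0.13 to 0.21). The intervals of 21 of the 30 factors that were not called lay within 0.5 of 0 on both sides. That share was not computed over all genes. The median size without sign of all 37 factors was 0.23, above the 0.10 of all genes, so the count does not show that the set was stable.

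None of the 3 E proteins was called. Tcf3 (E2A) read 8.29, 8.42, 8.51 and 8.52 in KO and 7.72, 8.16, 8.31 and 8.16 in control, and the highest control pool passed the lowest KO pool. It differed by 0.35 (adjusted p = 0.187 in limma), Tcf12 by 0.14 and Tcf4 by -0.16. The log2 ratio of Tcf3 to Tcf4 within an array ran from 0.09 to 0.37 in KO and from -0.50 to -0.15 in control. That ratio was not tested.

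Id3 and Id2, the inhibitors of E proteins, were both higher on average and neither was called. Id3 read 4.96, 5.08, 5.08 and 4.72 in KO, against 4.65, 4.50, 4.62 and 4.50 in control, with separate ranges, and differed by 0.39 (SE 0.10, adjusted p = 0.0585 in limma). It was called in 3 of 20 alternatives, among them the omission of KO pool 4 (adjusted p = 0.0221). Id2 read 7.80, 7.81, 5.59 and 6.45 in the 4 KO pools, against 6.10, 6.37, 5.85 and 5.66 in the 4 control pools. KO pools 1 and 2 stood far above the other 6 arrays, and KO pool 3 was the lowest of all 8. The mean difference of 0.92 thus had a wide 95% confidence interval, from -0.02 to 1.85. It was called in 1 of 20 alternatives, without KO pool 3 (adjusted p = 0.0414).

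Ikzf2 (Helios), an Ikaros family factor prominent in regulatory T cells and NK cells, followed the same arrays. It read 5.30, 5.32, 3.39 and 3.69 in KO pools 1 to 4, against 3.57, 3.49, 3.19 and 3.13 in control pools. Again KO pools 1 and 2 were high and KO pools 3 and 4 lay near or within the control range. The difference was 1.08 (SE 0.39, adjusted p = 0.206 in limma). Ikzf3 (Aiolos), the Ikaros family factor of mature B cells, differed by -0.16 (adjusted p = 0.375 in limma), with every KO pool below every control pool.

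Markers of T and NK cells, listed with earlier results of these data known, moved with these pools. The 16 measured T cell markers of 18 listed had means of 6.42, 6.08, 4.45 and 4.87 in KO pools 1 to 4, against 4.70, 4.88, 4.23 and 4.04 in control. All 16 had positive differences, of which limma called 0 after adjustment and 10 at an unadjusted p under 0.05, a level that 15.3% of all genes passed. Cd3e, a chain of the T cell receptor complex, was at 7.37 ± 1.21 in KO and 5.16 ± 1.07 in control. The mean of 15 NK cell markers ran from 4.27 to 5.42 in KO and from 3.59 to 4.31 in control. All 15 differences were positive, and 3 of the markers were called higher, against 1.49% of all genes. Ncr1 was nearly level, at 3.54 ± 0.13 in KO and 3.50 ± 0.06 in control, under the median of all gene means (3.81). Whether this list reads NK cells apart from T cells was not tested. The chemokine gene Xcl1 rose by 1.27, a call that held without each pool in turn and was lost with the T cell markers as covariate (adjusted p = 0.0613 in limma). Klrb1c kept its call only on omission of KO pool 2, KO pool 4 or control pool 2, and Klrd1 only on omission of KO pool 3 or control pool 2 (adjusted p otherwise up to 0.0946 and 0.109 in limma). No marker is at 0 on RMA arrays. In a pool, fewer cells of a type and less RNA per cell cannot be told apart.

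With the mean of these T cell markers as covariate, the difference of Id2 was -0.16 and that of Ikzf2 was 0.09. Without KO pools 1 and 2 they were 0.02 and 0.19. Satb1 kept 1.08 with the covariate and 1.17 without those pools (adjusted p = 0.0106 and 0.0109 in limma), Klf9 kept 0.92 and 0.84 (0.00909 and 0.0258), and Zbtb32 kept -0.86 and -0.97 (0.0282 and 0.0378). Foxo1 was 0.53 with the covariate (adjusted p = 0.0443) and 0.49 without those pools (0.0993). For Foxo3 the values were 0.42 and 0.43 (adjusted p = 0.112 and 0.107), and for Pou2f2 they were -0.38 and -0.40 (0.231 and 0.234), none of these called. Myb was -1.12 without those pools (adjusted p = 0.0336).

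**Figure D3:**
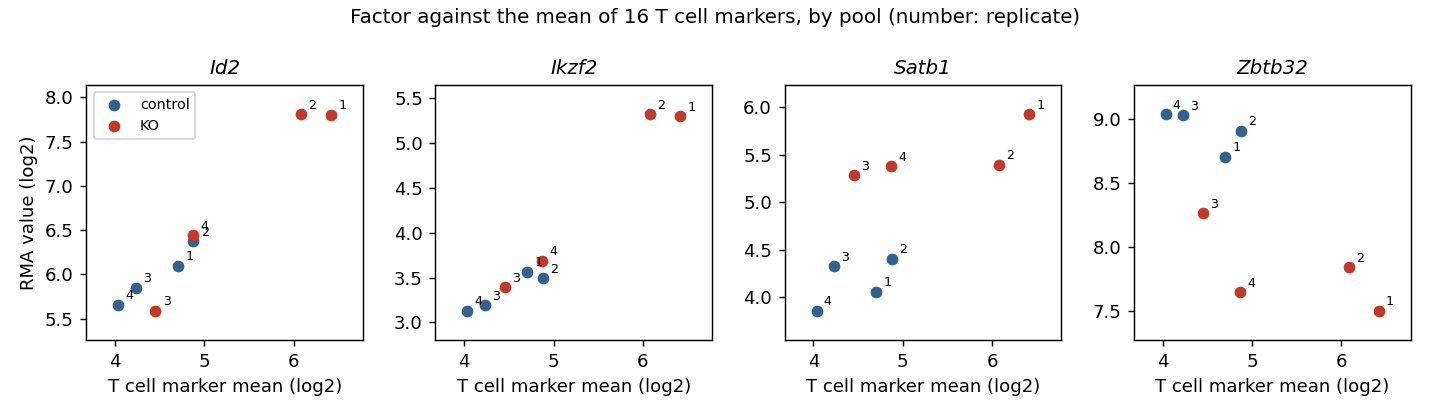
RMA value (log2, vertical axis) of Id2, Ikzf2, Satb1 and Zbtb32 against the mean of 16 T cell markers (log2, horizontal axis) in each pool, numbered by replicate; axes do not start at 0. Id2 and Ikzf2 are high in KO pools 1 and 2, where the marker mean is 6.42 and 6.08, while Satb1 and Zbtb32 separate KO from control also among the pools with a marker mean below 5.

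Macrophages are the other abundant cells of the peritoneal cavity. Their 19 markers had pool means from 4.67 to 5.00 in KO and from 4.61 to 5.50 in control, with control pool 1 highest, and Cd68 alone was called, at -0.56 (a call kept on omission of KO pool 3, KO pool 4 or control pool 2 alone, adjusted p otherwise up to 0.0835 in limma). Csf1r was at 3.58 ± 0.36 and 3.53 ± 0.26 and Adgre1 at 4.27 ± 0.43 and 5.04 ± 0.43. Spi1 (PU.1), which drives the myeloid lineage and acts in B cells at lower dose, read 5.14, 5.12, 5.44 and 5.25 in KO pools and 5.15, 5.69, 5.61 and 5.67 in control pools. Control pool 1 lay among the KO pools, and the difference of -0.29 was not called (adjusted p = 0.311 in limma). Spib, the related factor of mature B cells, differed by -0.06 (95% confidence interval -0.31 to 0.19). With the macrophage marker mean in the fit the Spi1 difference was -0.38 (adjusted p = 0.0605 in limma), and with the T cell marker mean it was -0.14 (adjusted p = 0.760), so it was called in neither.

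Ets1, which holds B cells back from plasma cell fate, read 9.35, 9.50, 9.35 and 9.31 in KO and 8.98, 9.16, 9.15 and 9.07 in control. All KO pools were higher, and the difference of 0.29 (SE 0.08) had an adjusted p of 0.0989 in limma. Elf1, another ETS factor of lymphocytes, differed by 0.19, also without overlap (adjusted p = 0.251). Among the 30 factors that were not called, 8 had groups that did not overlap: Runx3, Id3, Irf4, Ets1, Pou2af1, Elf1, Prdm1 and Ikzf3. Groups did not overlap in 10.5% of all genes and 17.3% of the brighter ones, called genes included. No share among uncalled genes was computed, so nothing is read from that count.

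Irf4 and Irf8 differed in opposite directions. Irf4, needed for class switching and plasma cells, read 7.53, 7.70, 7.49 and 7.70 in KO and 7.74, 7.97, 8.03 and 8.02 in control, all KO pools lower, with a difference of -0.34 (SE 0.10, adjusted p = 0.0881 in limma). Irf8, which opposes plasma cell differentiation, read 9.58, 9.69, 9.61 and 9.53 in KO and 9.25, 9.60, 9.04 and 9.05 in control. Control pool 2 lay among the KO pools, and the difference was 0.37 (SE 0.12, adjusted p = 0.149). It was called without control pool 2 (adjusted p = 0.0242), and its other probe set differed by 0.17. The log2 ratio of Irf4 to Irf8 within an array ran from -2.12 to -1.84 in KO and from -1.63 to -1.01 in control. Of 11 pairs of factors looked at in this way, 4 had separate ranges, the others being Tcf3 over Tcf4, Ikzf1 over Ikzf3 and Klf3 over Klf9. No ratio was tested and no share over other pairs of genes was computed, so nothing is read from that count.

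Runx3, a Runt factor of lymphocytes, read 5.75, 5.94, 5.94 and 5.80 in KO and 5.49, 5.60, 5.56 and 5.40 in control. Every KO pool was higher, and the difference of 0.34 (SE 0.09) narrowly missed the threshold (adjusted p = 0.0536 in limma). Runx1 differed by 0.23 (adjusted p = 0.221). At an adjusted p under 0.1 the called factors numbered 11 of 37, with Runx3, Id3, Irf4 and Ets1 added, against 5.42% of all genes. The same 11 factors were called when only the 11090 genes at or above the median mean were fitted, where 9.17% of genes were called.

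The bZIP factors Bach2, which represses Prdm1, and Batf, a partner of Irf4, differed by -0.09 and -0.02. Mef2c, a mediator of B cell receptor signals, differed by -0.19, Bcl11a, a zinc finger repressor required for early B cells, by -0.23, and Lmo2, an adaptor of E protein complexes, by -0.17. Zfp318, which governs the switch between IgM and IgD transcripts, differed by 0.05. None of these 6 was called, and their adjusted p values in limma ran from 0.295 to 0.969.

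**Figure D4:**
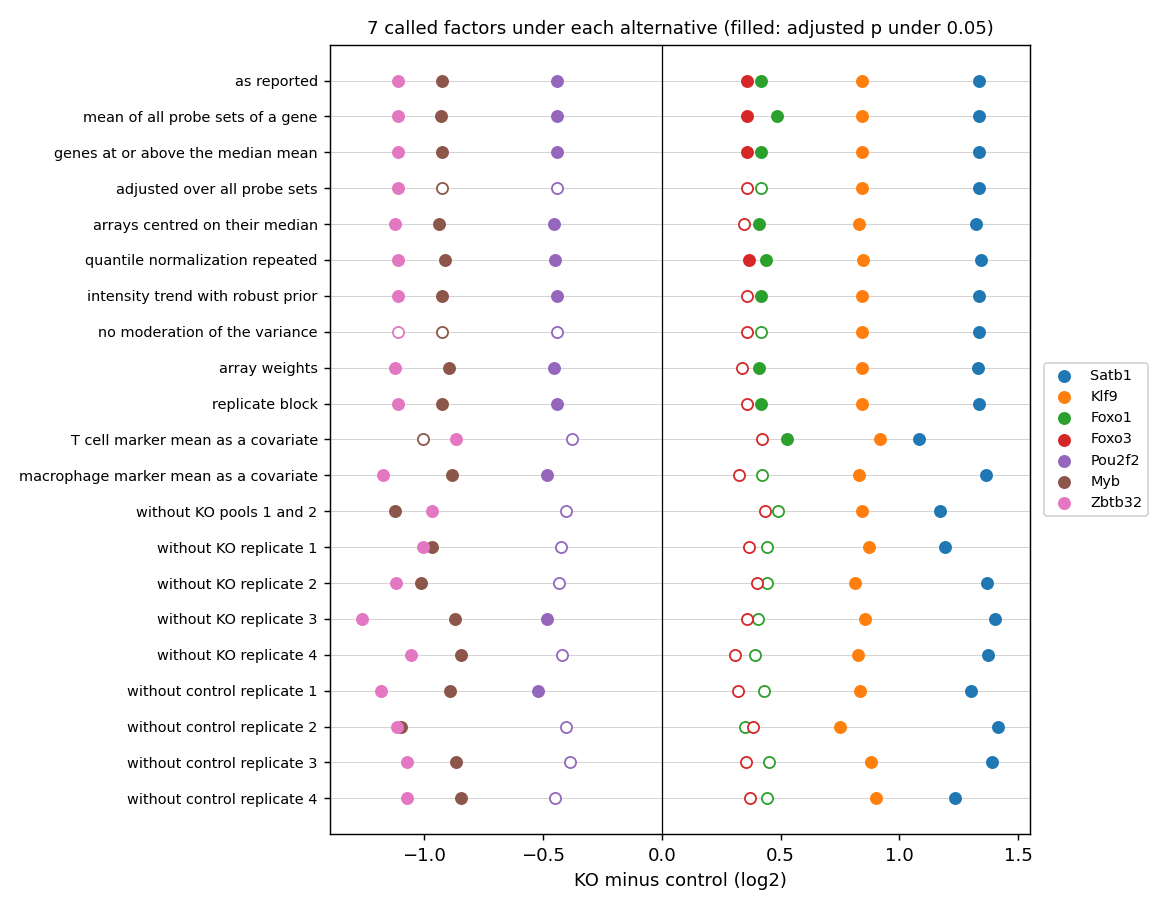
Difference of KO minus control (log2, horizontal axis) of the 7 called factors in the reported fit and in 20 alternatives (vertical axis), with filled points where the adjusted p was under 0.05. Satb1 and Klf9 are filled in every row, while Foxo3 is filled in 3 alternatives and Foxo1 in 8; no point crosses 0.

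Genes downstream of these factors were read from lists of textbook targets, chosen with earlier results of these data known. Of 8 measured Pax5-activated genes, 3 were higher and 2 lower, with a median difference of 0.26. The surrogate light chain family gene Vpreb3 rose by 1.82 (SE 0.16), and Sdc4, a heparan sulphate proteoglycan, by 0.51, and the complement receptor Cr2 by 0.74. Siglecg, an inhibitory lectin prominent on B-1 cells, fell by 0.83 (SE 0.12), and the complement regulator Cd55 fell by 0.63. Sdc4 missed the threshold when KO pool 2, KO pool 4 or control pool 4 was left out (adjusted p up to 0.0608 in limma), and Cr2 when any pool other than control pool 1 was left out (up to 0.114). Of 10 Pax5-repressed genes, 2 rose, with a median of 0.23, and limma called 0 lower (1 at an unadjusted p under 0.05): the joining chain gene Jchain rose from 4.02 ± 0.15 to 5.51 ± 0.29, and the adhesion gene Emb rose by 0.71, or by 0.44 over the mean of its probe sets. Sdc1, which marks plasma cells, was at 3.60 ± 0.05 in KO and 3.59 ± 0.12 in control, and Xbp1, the secretory factor of plasma cells, differed by -0.35 without a call. Sdc1, with Csf1r and Flt3 of the same list, lay under the median of all gene means (3.81). Differences so near background are understated, and little is read from these 3 genes. Cd28, also listed as a T cell marker, and Ccr2 differed by 0.61 and 1.07 without a call. Both were highest in KO pools 1 and 2, and both enter the median of the Pax5-repressed list. Over all genes the median was 0.02 and 3.59% were called.

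Of 8 Ebf1 target genes, Vpreb3 alone was called, and the median was -0.02; Cd79a and Cd79b, the signalling chains of the B cell receptor, differed by -0.04 and -0.01. Of 13 measured Foxo1 target genes, 2 rose, with a median of 0.10, and limma called 0 lower (2 at an unadjusted p under 0.05). Sesn1, a stress-responsive inhibitor of mTORC1, rose by 0.77 (SE 0.08, adjusted p = 0.000353 in limma) and was nearly uniform in KO, at 8.13 ± 0.01 against 7.36 ± 0.09. Bcl2l11 (Bim), a death-promoting BCL2 family gene, rose by 0.39, and missed the threshold on omission of each pool other than KO pool 3 (adjusted p up to 0.101 in limma). Il7r, which T cells also express, was at 7.73 ± 1.36 in KO and 4.98 ± 1.28 in control and was not called, and the trafficking genes Klf2, Ccr7 and S1pr1 differed by -0.20, -0.11 and -0.51 without a call.

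Relatives of the factors were counted from lists by family, also chosen with earlier results known. Of 86 measured paralogs, 5 were higher and 3 lower, or 9.30%, beside 3.59% of all genes and 6.65% of the brighter ones, with a median difference of 0.05. Zbtb10, a BTB zinc finger gene, rose by 0.86 (SE 0.08), the LIM adaptor Lmo4 by 0.50, the ETS repressor Elk3 by 0.52, Spic, the relative of PU.1 known from red pulp macrophages, by 0.71 from levels under the median of all gene means (2.95 in control and 3.66 in KO), and Bach1, the haem-regulated relative of Bach2, by 0.42. Lyl1, a bHLH factor of progenitors, fell by 0.44, the AP-1 gene Fosl2 by 0.59 and Zbtb7b, known for helper T cell fate, by 0.46. The calls of Zbtb10 and Lmo4 held without each pool in turn, and that of Lmo4 was lost with the T cell markers as covariate (adjusted p = 0.0565 in limma) and on omission of both KO pools 1 and 2 (0.0832). Those of Elk3 (leaving out KO pool 2, KO pool 4 or control pool 2), Bach1 (control pool 2 or 4), Spic (KO pool 2, 3 or 4 or control pool 1, 2 or 4), Lyl1 (any but KO pool 3 or 4), Fosl2 (any but control pool 1) and Zbtb7b (any) were lost, with adjusted p up to 0.0566, 0.0525, 0.0946, 0.0940, 0.128 and 0.138 in limma. Among 10 KLF, 8 forkhead and 5 IRF paralogs limma called 0 (3, 3 and 2 at an unadjusted p under 0.05). Bhlhe41, which sustains B-1a cells, was at 9.06 ± 0.09 in KO and 9.08 ± 0.07 in control.

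**Figure D5:**
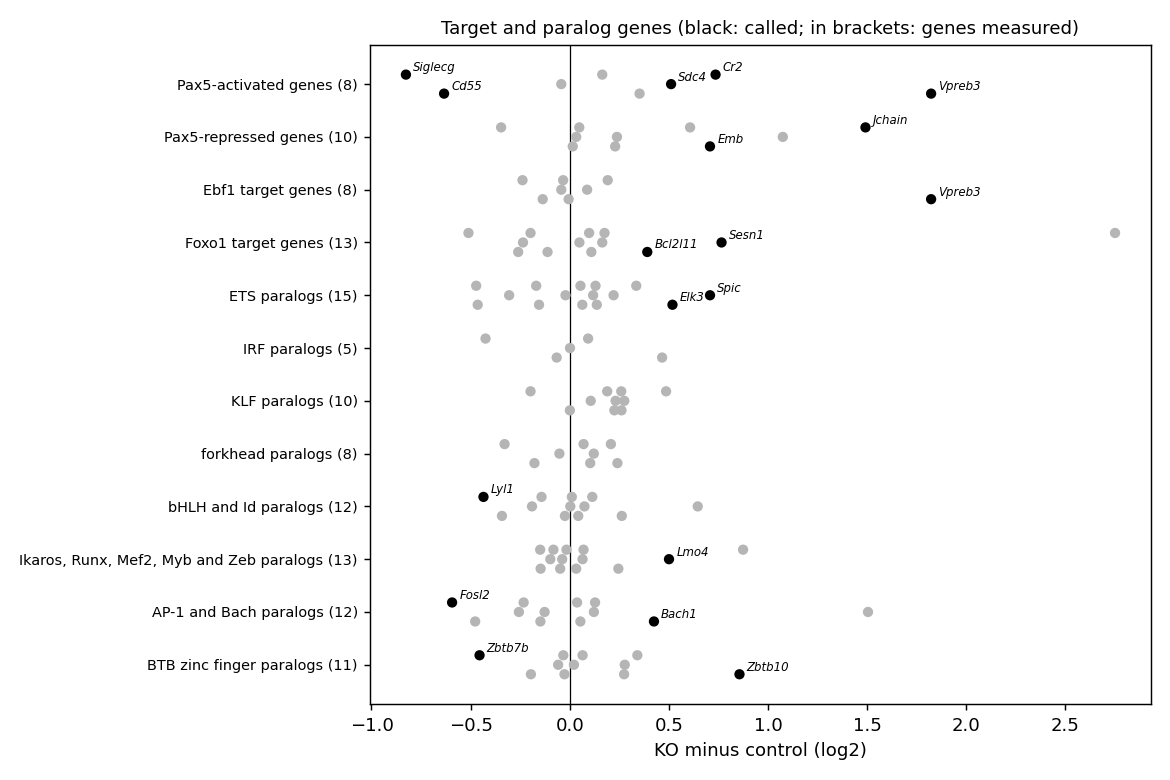
Difference of KO minus control (log2, horizontal axis) of each measured gene in 4 target lists and 8 paralog lists (vertical axis, number measured in brackets), with called genes in black and named. Vpreb3, at 1.82, and Jchain, at 1.49, lie farthest to the right among called genes and Siglecg, at -0.83, farthest to the left; Il7r, at 2.75, was not called.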

How the data were processed

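RNA of sorted cells was read on 8 arrays, and the log2 values of 41345 probe sets were deposited. The authors obtained them with RMA in R 3.2.2, per the submitters' processing notes. The package used is not stated in the sources used here. Array medians lay between 3.68 and 3.74. RMA values flatten near background, so folds of dim genes are understated. The platform annotation named 23521 probe sets with 1 symbol; 1814 had several and 16010 were not listed. For each gene the probe set with the highest mean was kept. KO was compared with control in limma 3.58.1 and R 4.3.3 (lmFit, eBayes, two-sided, Benjamini-Hochberg over 22180 genes), and the call rule was tested on simulated data. Members, gene lists and alternatives were chosen with earlier results of these data known. All 37 members are named, with Paxip1, every called gene of each list and defining markers of other cells. The plan had set at most 4 called genes per list. The other list genes named were chosen after their values were seen. Nothing in the labels says more on how pools were formed, so p-values measure the spread between pools. Promoter sequences are from RefSeq (GRCm38.p6). The locus of the Cre allele is not reported here.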

Additional observations from a re-analysis of the deposited data

Results flagged for a closer look

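Of 76 sets of 4 pools (the 37 factors and Paxip1 in each genotype), 3 had 1 pool far from the other 3, with a gap divided by the whole range above 0.829; chance alone flags about 1 in 20 such sets. Spi1 in control had a ratio of 0.840, with pool 1 at 5.15 and the others between 5.61 and 5.69. Pou2f2 in KO had a ratio of 0.852, with pool 3 at 7.81 and the others between 7.63 and 7.66; without that pool the difference was still called. Satb1 in KO had a ratio of 0.829, with pool 1 at 5.92 and the others between 5.29 and 5.39.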

How the results depend on the processing

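The reported fit called 797 genes and 7 factors. The counts were 403 genes and 3 factors with adjustment over all probe sets, 303 and 2 without moderation of the variance, 355 and 4 with T cell markers as covariate, 320 and 4 on omission of KO pools 1 and 2, 311 and 3 at an adjusted p under 0.01 and 1202 and 11 at an adjusted p under 0.1. With only genes at or above the median mean tested, 11 of 37 factors and 9.17% of genes were called. Leaving out 1 pool gave 479 to 758 genes and 4 to 6 factors, with the genes moved by over 1.5 times on omitting KO pool 2 (498 genes), control pool 2 (530), control pool 3 (497) or control pool 4 (479). The labels do not say whether equal replicate numbers pair the pools. Deviations of same-numbered pools correlated at 0.11, 0.04, 0.04 and 0.04, and 3 of 8 pools correlated best with their own number. In each genotype the T cell marker mean was higher in pools 1 and 2 than in pools 3 and 4. Whether pools of equal number share a batch was not tested. With the replicate block 666 genes and 6 factors were called, Foxo3 not among them. Of the 37 factors, 30 kept their sign in all 20 alternatives, the 7 called ones among them. The T cell marker covariate turned the sign of Batf (0.10), Id2 (-0.16), Pax5 (0.0543), Spib (0.14) and Zfp318 (-0.0912), and omission of KO pools 1 and 2 that of Batf (0.14), Pax5 (0.0296), Spib (0.12) and Zfp318 (-0.0195). Over omissions of 1 pool the differences ran from -0.10 to 0.0463 for Batf, -0.12 to 0.0424 for Spib, -0.0422 to 0.0064 for Pax5, -0.0619 to 0.0396 for Klf3, -0.0025 to 0.0557 for Ikzf1 and -0.0232 to 0.14 for Zfp318. The cause was not tested. Signal near background limits Ikzf2 in control, at 3.35, and Spic, Sdc1, Csf1r, Flt3 and Ncr1 in both groups. Satb1 and Klf9 also stood low in control, at 4.16 and 4.31, beside a median of all gene means of 3.81.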

Other observations

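Marker lists of B cell subsets were read beside the factors. Of 11 B-1a cell markers, 5 fell, against 2.10% of all genes. Among the brighter genes 6.65% were called in either direction. The lists were chosen with earlier results of these data known, and the share was not tested. Itgam (CD11b), an integrin chain of peritoneal B-1 cells, fell by 1.68, from 7.27 ± 0.29 to 5.59 ± 0.24 (SD, n = 4 pools). Fcrl5, an Fc receptor-like gene of B-1 and marginal zone cells, fell by 1.39, Cd9, a tetraspanin, by 0.60, Plac8 by 0.47 and Ahnak by 0.38. The calls of Itgam, Fcrl5 and Plac8 held without each pool in turn. Itgam and Fcrl5 were called in all 20 alternatives, the macrophage marker mean as covariate among them. Whether macrophages contribute to the Itgam values was not tested. With the T cell markers as covariate Itgam and Fcrl5 stayed called, at -1.78 and -1.55, and Plac8, Cd9 and Ahnak did not (adjusted p = 0.0703, 0.180 and 0.217 in limma). Over the mean of its probe sets Cd9 differed by -0.34. That of Cd9 was lost on omission of KO pool 2 or control pool 4, and that of Ahnak on omission of KO pool 1, KO pool 2 or 1 of control pools 2, 3 and 4 (up to an adjusted p of 0.0849 in limma). Of 10 pan-B cell markers, Cd22, an inhibitory lectin, fell by 0.59, a call lost on omission of KO pool 4 or control pool 4 and with the T cell markers as covariate (adjusted p = 0.105 in limma). Of 8 follicular B cell markers, Cr2 rose and Cd55 fell, as given above.

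Of 12 plasma cell markers, 2 were called higher and 1 lower, against 1.49% and 2.10% of all genes. The list did not move 1 way: 6 of the 12 differences were positive, and the median was -0.0092. At an unadjusted p under 0.05 in limma, 2 were higher and 3 lower. Jchain rose as given above, Slamf7, a surface receptor, rose from 8.87 ± 0.11 to 9.70 ± 0.03, and Fkbp11, a chaperone of the secretory pathway, fell by 0.49. Each of these 3 calls held without each pool in turn. That of Fkbp11 was lost with the T cell markers as covariate, without KO pools 1 and 2, without moderation of the variance and with the replicate block (adjusted p = 0.148, 0.149, 0.0603 and 0.05003 in limma). Among 14 mast cell and granulocyte markers and 5 dendritic cell markers limma called 0 (1 and 2 at an unadjusted p under 0.05).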
